A study of Homo sapiens with 12 samples.

Results

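The genes described here are 9 members of the epidermal growth factor receptor (EGFR) family and its circuit, chosen by symbol out of 60675 gene IDs. They are the receptors EGFR, ERBB2 and ERBB3, the ligands AREG, EREG, TGFA, HBEGF and BTC, and the feedback inhibitor ERRFI1. All 9 were matched to a gene ID and all 9 passed the filter on low counts. The cells were HT29, an established human colorectal adenocarcinoma line that carries an activating BRAF mutation. For 24 h they received a water extract of *Aconitum carmichaeli* Debeaux (ACD), and the doses of 20, 100 and 500 µg/mL are called low, medium and high here. The extract was prepared in PBS containing 2% DMSO, and control cells received PBS with 2% DMSO alone (vehicle). The 2% is that of the solution added to the wells, not of the culture medium. Each of the 4 groups had 3 libraries, and since the labels do not say that they came from separate experiments, the p-values measure the spread between these libraries only. ACD is named in the titles and the treatment field, by which the libraries were grouped, although their protocol text speaks of *Poria cocos*.

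The ERBB receptors are tyrosine kinases of the cell surface. Their ligands are made as membrane-bound precursors that proteases release, and ligand binding joins receptors in pairs and starts the RAS–RAF–ERK and PI3K–AKT cascades. EGFR binds all 5 ligands listed here, ERBB3 binds neuregulins, and ERBB2 has no known ligand and acts as a partner of the others. In the gut epithelium these ligands promote growth and repair, and AREG and EREG are expressed in many colorectal tumours. ERRFI1 (also MIG6) is an early response gene of the pathway whose protein binds the kinase domain of activated EGFR and blocks it.

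The libraries held 15941255 to 33866644 expected counts. Levels are given as CPM, the counts of a gene per 1000000 counts of its library after TMM scaling. High-dose replicate 2, the smallest library, stood apart. Its log2 differences from the other high-dose libraries had an SD of 0.502 over 10626 genes above 5 CPM, while the 11 remaining libraries had 0.102 to 0.293 within their groups. The difference of high-dose replicate 2 fell by 0.20 for each doubling of exon length. For the other libraries, each against its own group, this slope ran from −0.11 in vehicle replicate 1 to 0.11 in high-dose replicate 1. The share of counts from mitochondrial genes was 14.04% to 16.59% at the high dose and 7.41% to 11.05% in the other groups. All 9 colon epithelial markers checked were above 1 CPM in every group, and their sum was 10800 to 12900 CPM per library. The 8 markers of other cell types summed to between 2.41 and 4.39 CPM, and COL1A2 and S100B had 0 counts in every library.

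At the high dose, all 5 ligands and ERRFI1 rose against vehicle, while none of the 3 receptors passed the test. EREG rose 2.14-fold, AREG 1.86-fold, ERRFI1 1.63-fold, BTC 1.52-fold, HBEGF 1.32-fold and TGFA 1.25-fold. These 6 of 9 members had an adjusted p under 0.05 and were higher, compared with 2.82% of the 15374 genes tested, and 0 were lower, compared with 2.95%. The adjusted p was corrected for the number of genes tested. Of them, 4 also passed the fold change of 1.5 used in the study (AREG, EREG, BTC and ERRFI1), compared with 1.26% of all genes. The high-dose libraries of all 6 lay above every vehicle library, compared with 10.5% of all genes. The median log2 fold change of the 9 members was 0.41, and that of all tested genes was 0.01. The members and the lists below were chosen with earlier results of these data known. The shares over all genes therefore describe the background and give no independent support.

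**Figure D1:**
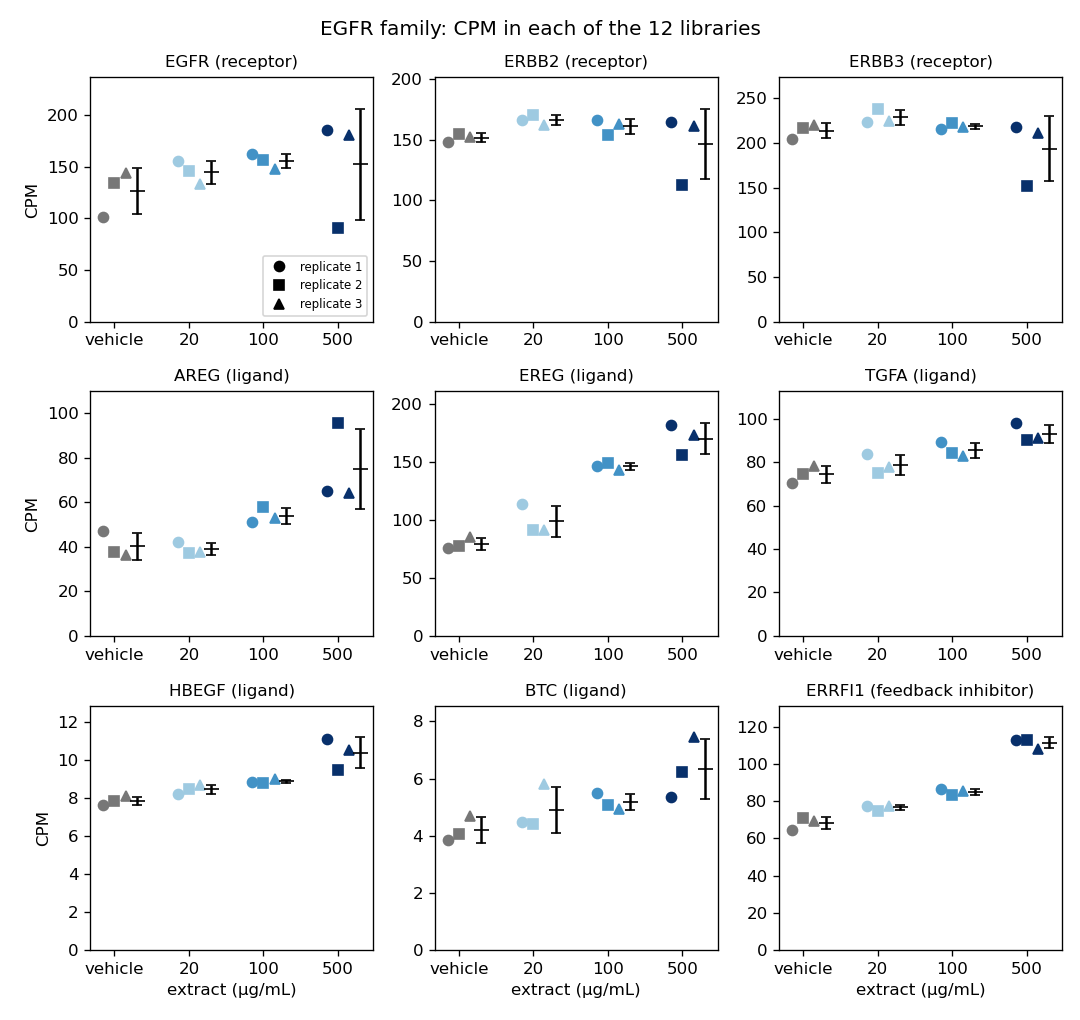
CPM of each member in the 12 libraries, by dose of the extract in µg/mL. Points are libraries, with a symbol for each replicate number, and the black bar is the mean ± SD of 3 libraries. ERRFI1 and EREG stand in dose order with no overlap between groups, and the lowest value of each receptor is in high-dose replicate 2.

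The sequences just upstream of AREG, EREG and ERRFI1 are shown because these 3 members were also higher at the high dose than at the low dose. AREG and EREG lie beside each other on the forward strand of chromosome 4, and with BTC they span 429.4 kb, within which the annotation holds no other protein-coding gene. Each line gives the 150 bases before the RefSeq start site in GRCh38.p14, 5′ to 3′ on the strand of the gene. Capitals mark the motifs searched on both strands, which were the core of the aryl hydrocarbon receptor element (GCGTG), the AP-1 site (TGANTCA), the core of the cyclic AMP response element (TGACG) and the NF-kB site.
AREG, chr4:74444986-74445135, forward strand: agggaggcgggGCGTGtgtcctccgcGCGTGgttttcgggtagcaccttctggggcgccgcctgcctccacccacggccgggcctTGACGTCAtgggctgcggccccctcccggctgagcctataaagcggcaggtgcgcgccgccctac
EREG, chr4:74364995-74365144, forward strand: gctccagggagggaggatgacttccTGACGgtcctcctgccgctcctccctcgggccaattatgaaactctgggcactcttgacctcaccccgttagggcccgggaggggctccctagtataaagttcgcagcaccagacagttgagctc
ERRFI1, chr1:8026310-8026459, reverse strand: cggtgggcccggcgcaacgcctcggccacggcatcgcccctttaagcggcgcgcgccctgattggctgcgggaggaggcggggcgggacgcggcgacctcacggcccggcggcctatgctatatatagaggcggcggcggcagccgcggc

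In AREG the TGACG matches of both strands overlap, at −65 to −61 and −62 to −58 from the start, and GCGTG occurs at −139 and −124. EREG holds 1 TGACG at −125. ERRFI1 has no match in the window, which says only that these letters are not there. In the window from 250 bases before to 50 after the start, RefSeq held 10 promoters for 8 of the 9 members, since EGFR and TGFA each had 2. GCGTG was present in 5 of the 10 (AREG, BTC, EREG, HBEGF and the downstream promoter of TGFA), compared with 36.5% of 35116 promoters. TGACG was present in 3 (AREG, EREG and the upstream promoter of TGFA), compared with 24.6%. The NF-kB site was found in 2 (BTC and the upstream promoter of TGFA), compared with 11.3%, and TGANTCA in 2 (ERBB2 and the promoter of EGFR that lies inside the gene), compared with 7.7%. The GC content of the window was 66.3% for AREG, 57.7% for EREG and 74.7% for ERRFI1, with a median of 58.7% over all promoters. These matches are descriptions of the sequence, and no binding was measured.

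EREG (epiregulin, ENSG00000124882, chromosome 4 of GRCh38 from 74365145 to 74388749) is a ligand of EGFR and ERBB4. The vehicle libraries had 75.8, 77.3 and 85.3 CPM, the low-dose libraries 91.2, 91.3 and 114 CPM, the medium-dose libraries 143, 147 and 149 CPM and the high-dose libraries 156, 173 and 182 CPM. No library of a dose overlapped those of the dose below it. The high-dose mean was 170 ± 12.8 CPM against 79.5 ± 5.09 CPM in vehicle (SD, n = 3 libraries each), and edgeR's quasi-likelihood test gave a log2 fold change of 1.10 with an SE of 0.10 (adjusted p = 3.59e-05). The medium dose gave 0.88 with an SE of 0.10 (adjusted p = 0.000644). At the low dose it was 0.31 with a 95% interval from 0.11 to 0.52, and the adjusted p was 0.348. Without high-dose replicate 2, the low-dose contrast of EREG had an adjusted p of 0.0423 in the same fit of all groups.

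AREG (amphiregulin, ENSG00000109321, chromosome 4 from 74445136 to 74455005) is a ligand that binds EGFR with a lower affinity than EGF. Vehicle libraries had 36.3, 37.5 and 47.3 CPM, low-dose libraries 37.2, 37.8 and 42.2 CPM, medium-dose libraries 51.0, 53.0 and 58.0 CPM and high-dose libraries 64.4, 65.1 and 95.6 CPM. The low-dose libraries lay within the range of the vehicle libraries, and the medium and high doses lay above it. The value of 95.6 CPM belonged to high-dose replicate 2. In edgeR the high dose gave a log2 fold change of 0.89 with an SE of 0.15 (adjusted p = 0.00386), and without that library 0.69 with an SE of 0.09 (adjusted p = 0.000134). For the medium dose it was 0.42, with an interval from 0.10 to 0.75 and an adjusted p of 0.279, which became 0.00758 without high-dose replicate 2. The log2 fold change at the low dose was −0.04 (interval −0.37 to 0.28).

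TGFA, HBEGF and BTC rose by less. TGFA (transforming growth factor alpha, ENSG00000163235, chromosome 2 from 70447284 to 70554193), which binds EGFR alone, had 70.2, 74.6 and 78.3 CPM in vehicle and 90.0, 91.2 and 97.9 CPM at the high dose. In edgeR its log2 fold change was 0.32 with an SE of 0.07 (adjusted p = 0.0195). HBEGF (heparin-binding EGF-like growth factor, ENSG00000113070, chromosome 5 from 140332843 to 140346603) binds EGFR and ERBB4. Vehicle libraries had 7.65, 7.82 and 8.08 CPM, low-dose libraries 8.18, 8.49 and 8.68 CPM, medium-dose libraries 8.78, 8.86 and 8.97 CPM and high-dose libraries 9.49, 10.5 and 11.1 CPM, so that each group lay above the one before it. For HBEGF the high dose gave a log2 fold change of 0.41 with an SE of 0.08 (adjusted p = 0.0129). BTC (betacellulin, ENSG00000174808, chromosome 4 from 74744759 to 74794523), a ligand of EGFR and ERBB4, was the lowest member, with 70 to 242 expected counts per library. It had 3.85, 4.06 and 4.70 CPM in vehicle and 5.36, 6.23 and 7.44 CPM at the high dose, which was a log2 fold change of 0.60 with an SE of 0.15 (adjusted p = 0.0375).

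These 3 calls were lost in some fits that left out 1 library, although the log2 fold changes stayed positive. Calls over all genes also fell, from 887 to between 433 and 713, without any 1 library other than high-dose replicate 2. TGFA was not called without vehicle replicate 1 or 2 or high-dose replicate 1 (adjusted p from 0.0689 to 0.0714), and HBEGF was not called without vehicle replicate 2 or high-dose replicate 1 or 3 (0.0514 to 0.0562). BTC was called under 11 of 23 alternatives, and was lost without any 1 vehicle or medium-dose library, high-dose replicate 3 or low-dose replicate 1 (0.0510 to 0.149). Against vehicle, the medium dose gave log2 fold changes of 0.20 for TGFA (interval 0.04 to 0.35), 0.17 for HBEGF (−0.00 to 0.35) and 0.30 for BTC (−0.03 to 0.63), and none passed the test. All medium-dose libraries of these 3 genes lay above the vehicle libraries.

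ERRFI1 (ENSG00000116285, chromosome 1 from 8004404 to 8026309), the feedback inhibitor, had the smallest standard error of the 9 members. The libraries had 64.4, 69.2 and 70.7 CPM in vehicle, 74.8, 77.5 and 77.5 CPM with the low dose, 83.4, 85.2 and 86.7 CPM with the medium and 108, 113 and 113 CPM with the high dose. The 4 groups did not overlap and stood in the order of the doses. The mean was 68.1 ± 3.27 CPM in vehicle and 111 ± 2.57 CPM with the high dose (SD, n = 3). In edgeR this was a log2 fold change of 0.71 with an SE of 0.06 (adjusted p = 3.15e-05), the smallest p of the 9 members. The change was 0.70 without high-dose replicate 2. With the medium dose it was 0.32 with an SE of 0.06 (adjusted p = 0.0258), and the call was lost without any 1 of the vehicle or medium-dose libraries (adjusted p from 0.0750 to 0.152). With the replicate number as a block, the adjusted p at the medium dose was 0.0880. At the low dose the value was 0.17 (interval 0.04 to 0.30, adjusted p = 0.481).

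The genes most like ERRFI1 over the 12 libraries, among 10625 with a mean of at least 5 CPM, were ZNF473, GPAT3, ME1, EPRS1 and ALAS1, each with a Pearson correlation of 0.98 on log2 CPM. The points share the libraries and the groups, so the values describe the pattern only. ME1, the cytosolic malic enzyme that makes NADPH, had 82.0 CPM in vehicle and 136 CPM at the high dose. ALAS1, the first enzyme of heme synthesis, had 45.6 and 83.0 CPM. GPAT3, an enzyme of triglyceride synthesis, had 12.2 and 26.7 CPM, and EPRS1, a tRNA synthetase for glutamate and proline, had 253 and 353 CPM.

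**Figure D2:**
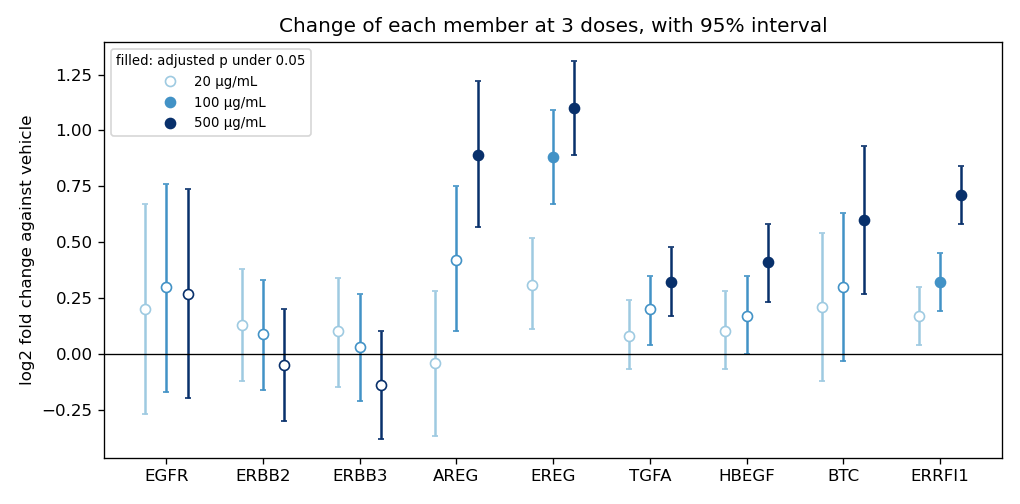
Log2 fold change of each member against vehicle at 20, 100 and 500 µg/mL, from edgeR's fit of all 12 libraries. Bars are 95% intervals and filled points have an adjusted p under 0.05. At 500 µg/mL the 5 ligands and ERRFI1 are filled and the intervals of EGFR, ERBB2 and ERBB3 include 0.

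The receptors showed no change that passed the test in the 12 libraries, and their values depended on single libraries. EGFR (ENSG00000146648, chromosome 7 from 55019017 to 55211628) had 101, 134 and 144 CPM in vehicle, 133, 146 and 155 CPM in the low-dose and 148, 156 and 162 CPM in the medium-dose libraries. At the high dose it had 185 and 181 CPM in replicates 1 and 3, above all vehicle libraries, and 90.6 CPM in replicate 2, below all of them. Its log2 fold change was 0.27 with an interval from −0.20 to 0.74 (adjusted p = 0.541 from edgeR). Without high-dose replicate 2 it was 0.53 with an SE of 0.12 (interval 0.28 to 0.79) and passed the test (adjusted p = 0.00937). That fit kept vehicle replicate 1, which had the lowest vehicle value, 101 CPM. The log2 fold change of EGFR was 0.11 without high-dose replicate 1, 0.13 without high-dose replicate 3 and 0.14 without vehicle replicate 1. It did not pass the test in any of these 3 fits (adjusted p from 0.798 to 0.818). With an offset per library for exon length it was 0.28 (adjusted p = 0.295).

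ERBB2 (ENSG00000141736, chromosome 17 from 39687914 to 39730426) had 148 to 155 CPM in vehicle, 165 and 161 CPM in high-dose replicates 1 and 3 and 113 CPM in replicate 2. Its log2 fold change at the high dose was −0.05 (interval −0.30 to 0.20) and 0.10 without replicate 2 (−0.01 to 0.22). ERBB3 (ENSG00000065361, chromosome 12 from 56076799 to 56103505) had 205 to 220 CPM in vehicle and 218, 152 and 211 CPM in high-dose replicates 1, 2 and 3. Its log2 fold change was −0.14 (interval −0.38 to 0.10) and 0.01 without replicate 2 (−0.11 to 0.12). On the log2 scale, high-dose replicate 2 differed from the mean of the other high-dose libraries by −1.01 for EGFR, −0.52 for ERBB2, −0.50 for ERBB3 and 0.56 for AREG, and by −0.19 to 0.03 for the other 5 members. ERBB2 overlaps exons of PGAP3 and MIEN1 on the opposite strand, and ERBB3 overlaps another gene on its own strand, and how reads in the shared exons were split between the genes is not known.

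**Figure D3:**
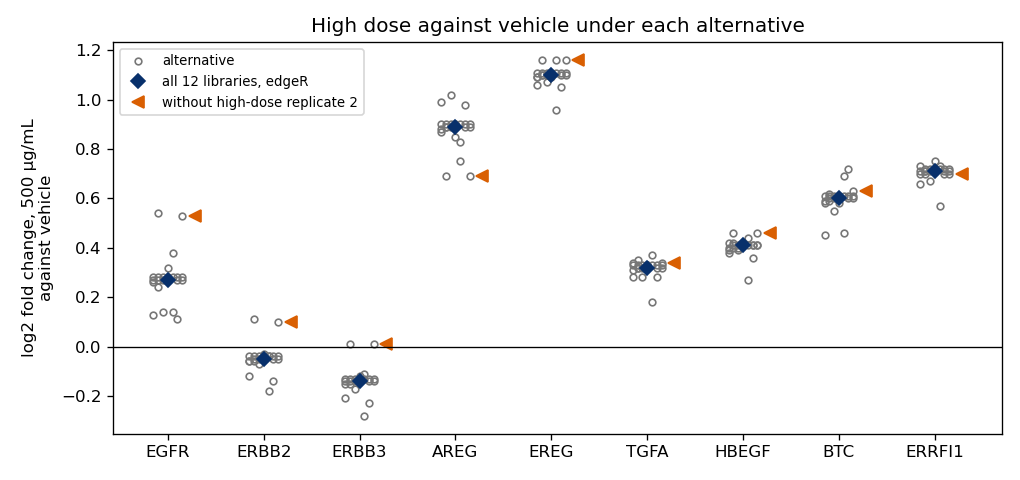
Log2 fold change of each member at 500 µg/mL against vehicle under 23 alternatives (grey circles), beside the fit of all 12 libraries (diamond) and the fit without high-dose replicate 2 (triangle). EGFR moves from 0.27 to 0.53 without that library and AREG from 0.89 to 0.69, while ERRFI1 stays near 0.71.

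With the medium dose, 2 of the 9 members were called, EREG and ERRFI1, both higher, compared with 0.572% of all genes. The medium-dose libraries of 7 members lay above every vehicle library, compared with 14.5% of all genes. At the low dose, edgeR called 0 of the 9 members, compared with 0.124% of all genes called in either direction. The low-dose libraries of 5 members lay above every vehicle library (ERBB2, ERBB3, EREG, HBEGF and ERRFI1), compared with 11.4% of all genes. Of the members, 2 had an unadjusted p under 0.05 there, EREG and ERRFI1 (0.00624 and 0.0160), compared with 7.95% of all genes, and DESeq2 on all libraries also called 0. The 3 doses share the vehicle libraries, so their changes are not independent of each other. In a trend test over the ranked doses, the same 5 ligands and ERRFI1 were called and no receptor was, compared with 2.76% of all genes called with a positive trend. The slope per dose step in edgeR was 0.39 for EREG (adjusted p = 1.30e-05), 0.31 for AREG (adjusted p = 0.00308), 0.23 for ERRFI1 (adjusted p = 5.57e-05), 0.19 for BTC, 0.13 for HBEGF and 0.11 for TGFA. EGFR had a slope of 0.09, which became 0.17 and passed the test without high-dose replicate 2 (adjusted p = 0.00386). The trend of BTC was not called without vehicle replicate 1 or 2 or high-dose replicate 3 (adjusted p from 0.0689 to 0.120), and that of HBEGF without high-dose replicate 3 (0.0507). All 4 groups stood in rising dose order without overlap for 3 members, EREG, HBEGF and ERRFI1, compared with 35 of the 15374 genes (0.228%).

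The comparison of the high with the low dose sets only the libraries of these 2 groups against each other. The scaling and the spread behind its p-values came from the fit of all 12 libraries, vehicle included. AREG, EREG and ERRFI1 were higher at the high dose, compared with 1.44% of all genes, and no member was lower, compared with 1.54%. The log2 difference in edgeR was 0.94 for AREG (SE 0.15, adjusted p = 0.00390), 0.79 for EREG (SE 0.09, adjusted p = 0.000569) and 0.54 for ERRFI1 (SE 0.06, adjusted p = 0.000356). With edgeR on the 2 groups alone, AREG and EREG were not called (adjusted p = 0.0762 and 0.0518), and ERRFI1 stayed called. The high-dose libraries of these 3 genes, TGFA and HBEGF, 5 members in all, lay above every low-dose library, compared with 9.61% of all genes. TGFA (0.24, interval 0.09 to 0.39), HBEGF (0.30, interval 0.12 to 0.48) and BTC (0.39, interval 0.07 to 0.71) did not pass the adjustment. Without high-dose replicate 2, TGFA and HBEGF also passed, with adjusted p-values of 0.0180 and 0.0163. In that fit the difference was 0.73 for AREG, 0.84 for EREG and 0.53 for ERRFI1. ERBB3 had 194 ± 36.4 CPM at the high and 229 ± 8.02 CPM at the low dose, a log2 difference of −0.24 (interval −0.48 to 0.01), which was −0.09 without high-dose replicate 2.

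Levels of different genes were compared only as CPM per kilobase of annotated exons. In vehicle, AREG was the highest member at 24.6 ± 3.69 CPM per kb (SD, n = 3), followed by ERBB3 (18.3 ± 0.679), ERRFI1 (16.3 ± 0.783), TGFA (15.1 ± 0.826), ERBB2 (14.7 ± 0.342), EREG (13.9 ± 0.890), EGFR (7.93 ± 1.39), HBEGF (2.63 ± 0.0732) and BTC (1.59 ± 0.167). The libraries of ERRFI1 and TGFA, of TGFA and ERBB2 and of ERBB2 and EREG overlapped, and the other neighbours did not. The order depends on the length used. Per kilobase of the MANE Select transcript, ERBB3 came first at 38.1 CPM per kb, with ERBB2 at 33.3 and AREG at 32.7, and EGFR, HBEGF and BTC were again the 3 lowest.

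The summed level of the 5 ligands was 57.8 ± 2.38 CPM per kb of exon length in vehicle and 61.8 ± 4.64, 80.7 ± 2.34 and 100 ± 8.01 with the low, medium and high dose (SD, n = 3 each). The medium-dose libraries (78.9 to 83.4) lay above all vehicle and low-dose libraries, and the high-dose libraries (94.3 to 109) above all medium-dose ones. AREG made up 42.4% ± 4.78 of this sum in vehicle and 45.2% ± 6.94 at the high dose, with overlapping libraries. The share of EREG was 22.0% to 26.0% in the vehicle libraries, 31.2% to 32.1% at the medium dose and 25.0% to 32.7% at the high dose. TGFA had 23.6% to 27.7% of the sum in vehicle and 16.7% to 20.5% at the high dose, although its own level was higher. In bulk RNA, more cells that express a ligand and more RNA per cell cannot be told apart.

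**Figure D4:**
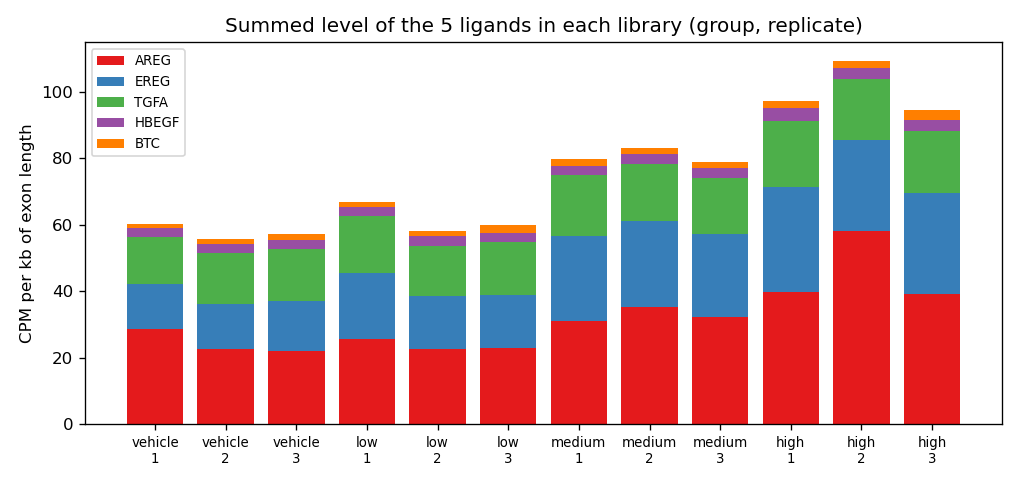
Summed level of the 5 ligands in each of the 12 libraries, in CPM per kb of annotated exon length, stacked by ligand. The vehicle libraries reach 55.7 to 60.4 and the high-dose libraries 94.3 to 109, with AREG and EREG as the tallest parts at the high dose.

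Of the other 7 genes of the family, 2 passed the filter. EGF had 1.10 ± 0.408 CPM in vehicle and 1.55 ± 0.121 CPM at the high dose (log2 fold change 0.51, adjusted p = 0.309 from edgeR), and NRG4 had 1.17 ± 0.358 and 1.07 ± 0.138 CPM (−0.14, adjusted p = 0.822). ERBB4, the fourth receptor, and the neuregulin NRG1 had 0 CPM in all vehicle and high-dose libraries, and EPGN, NRG2 and NRG3 were below 0.1 CPM on average in both groups. Among 9 genes of ligand release, 7 were tested, 1 was called lower and 0 higher, compared with 2.95% and 2.82% of all genes. RHBDL2, a rhomboid protease of the cell membrane, fell from 14.9 ± 2.03 to 10.2 ± 0.752 CPM (log2 fold change −0.55, adjusted p = 0.00884). ADAM17, the main protease that releases AREG, EREG, TGFA and HBEGF, had 32.1 ± 4.61 and 39.9 ± 4.86 CPM (0.32, adjusted p = 0.122), and ADAM10, which releases BTC, had 218 ± 18.8 and 223 ± 6.18 CPM (0.03, adjusted p = 0.856). ADAM9, a related protease, had 109 ± 6.15 and 126 ± 5.53 CPM (0.22, adjusted p = 0.0895). In this list, 3 genes were called higher and 1 lower without high-dose replicate 2. Leaving out that library also raised the calls over all genes, from 887 of 15374 to 2934 of 15674.

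None of the 22 adaptors and kinases below the receptor was called by edgeR at the high dose. Over all genes, 2.82% were called higher and 2.95% lower, so 0 of 22 is near these shares. DESeq2 on all libraries called 1 of the list as higher, and the median log2 fold change of the list was 0.00. The smallest p-values were those of SHC1, an adaptor bound by activated EGFR (log2 fold change 0.25, adjusted p = 0.0848), and of PTPN11, the phosphatase SHP2 (0.21, adjusted p = 0.158). With MAPK3 (ERK1, log2 fold change 0.20), these made up the 3 genes of the list with an unadjusted p under 0.05, compared with 20.1% of all genes. Without high-dose replicate 2, 4 of the list were called higher and 1 lower, where 2934 of 15674 genes were called in either direction. Of 16 genes of receptor down-regulation, 2 rose and 1 fell, compared with 2.82% and 2.95% of all genes. RNF41, a ubiquitin ligase for ERBB3, rose from 56.5 ± 0.942 to 70.7 ± 4.25 CPM (log2 fold change 0.32, adjusted p = 0.0106 from edgeR), and SOCS5, which promotes the breakdown of EGFR, from 29.5 ± 2.38 to 38.2 ± 5.04 CPM (0.37, adjusted p = 0.0416). LRIG2 fell from 25.3 ± 2.04 to 20.1 ± 0.859 CPM (−0.33, adjusted p = 0.0366). SOCS5 and LRIG2 were called under 8 and 9 of 23 alternatives, and leaving out single libraries gave 1 to 4 genes called higher and 0 to 1 lower, with 4 without high-dose replicate 2.

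**Figure D5:**
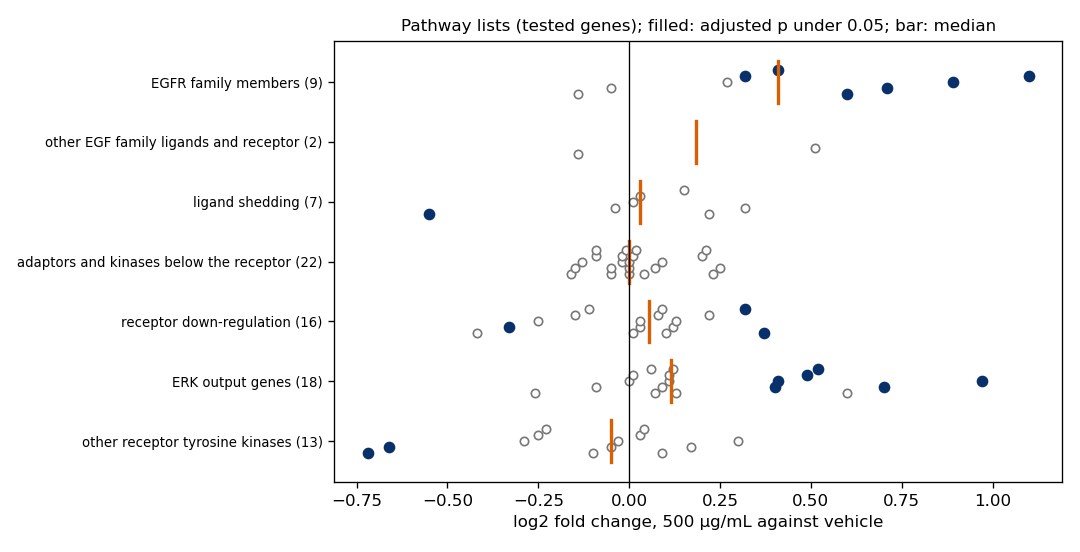
Log2 fold change at 500 µg/mL against vehicle of every tested gene in the 9 members and 6 lists of pathway genes, with the number tested in brackets. Filled points have an adjusted p under 0.05 and orange bars are medians. The filled points lie above 0 for the members and the ERK output genes and below 0 for the other receptor tyrosine kinases.

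Of 18 tested genes that respond to ERK signalling, 6 rose at the high dose, 0 fell and 12 did not pass the test, where 2.82% of all genes were called higher and 2.95% lower. The median log2 fold change of the list was 0.11. DUSP5, a nuclear phosphatase of ERK, rose from 4.13 ± 0.374 to 8.16 ± 0.319 CPM (log2 fold change 0.97, adjusted p = 8.80e-05 from edgeR), and IER3, an early response gene, from 65.0 ± 11.5 to 105 ± 4.04 CPM (0.70, adjusted p = 0.00156). These passed both thresholds. FOS, FOSL1, PHLDA1 and EMP1 rose with log2 fold changes from 0.40 to 0.52. Others widely used as readouts of ERK did not pass, with DUSP6 at 60.5 ± 2.05 and 65.5 ± 1.56 CPM (0.11, adjusted p = 0.360) and SPRY4, DUSP4, ETV4 and ETV5 at log2 fold changes from 0.00 to 0.11. SPRY2 had −0.26 (adjusted p = 0.0699). EGR1 was not called either, with 33.3 ± 0.365 CPM in vehicle and 50 ± 16.3 CPM at the high dose (0.60, adjusted p = 0.087 from edgeR). At the medium dose EGR1 had 0.64 (adjusted p = 0.172). With the medium dose 3 genes of this list were called, DUSP5, IER3 and EMP1, all higher, compared with 0.572% of all genes. Without high-dose replicate 2, 10 genes were called higher and 1 lower at the high dose, and without vehicle replicate 2, 3 were called higher. The counts were 1 higher and 0 lower with edgeR on the 2 groups alone and 2 higher and 1 lower with total counts in place of TMM. Over all genes, 887 were called in the fit of all 12 libraries, 2934 without high-dose replicate 2 and 433 without vehicle replicate 2. The 2 groups alone gave 181 and total counts gave 1551.

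Among 13 other receptor tyrosine kinases tested, 2 fell and 0 rose, compared with 2.95% and 2.82% of all genes. Leaving out high-dose replicate 2 gave 2 called lower and 2 higher, where 2934 of 15674 genes were called. With edgeR on the 2 groups alone, 0 of the list and 181 of 14902 genes were called. FGFR2, a receptor of fibroblast growth factors, fell from 45.3 ± 1.70 to 28.6 ± 3.75 CPM (log2 fold change −0.66, adjusted p = 0.000971 from edgeR). EPHB3, an ephrin receptor of the intestinal crypt, fell from 24.1 ± 1.21 to 14.5 ± 2.16 CPM (−0.72, adjusted p = 0.00137). MET, the receptor of hepatocyte growth factor, had 425 ± 40.9 and 523 ± 88.9 CPM (0.30, adjusted p = 0.159). FGFR2 and EPHB3 were also lower at the high than at the low dose, with log2 differences of −0.59 and −0.75 (adjusted p = 0.00326 and 0.00132).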

How the data were processed

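RNA of HT29 cells was sequenced in 12 libraries with a directional mRNA kit. According to the methods of the study and the processing notes of the submitters, reads were trimmed (Trim Galore), aligned (STAR) and quantified per gene by the authors with RSEM 1.3.3 on annotation GRCh38.84. The strand setting of RSEM is not given in the sources used here. The deposited values are expected counts per Ensembl gene ID, not normalized. They were rounded and tested with edgeR 4.0.16 in R 4.3.3 (filterByExpr, TMM, robust quasi-likelihood fit of all 12 libraries with the 4 groups as terms). The p-values were adjusted by Benjamini–Hochberg over all 15374 genes of a contrast. Log2 CPM used a prior count of 2. Standard errors came from the F statistic, and intervals are 95% intervals. DESeq2 1.42.0, the tool of the study, was an alternative.

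Symbols came from a reference list of gene names, and from GENCODE release 44 where that list gave none. GENCODE release 44 holds 93.2% of the gene IDs, and exon lengths cover all exons annotated there. Promoters came from RefSeq (GRCh38.p14). The scripts were tested on simulated data. The members and lists were chosen with earlier results of these data known. Named genes are all 9 members, the genes of a list past both thresholds at the high dose or otherwise the 2 with the smallest p, and the 5 genes most correlated with the member of smallest p. Other list genes were named for their roles after their values were seen. Alternatives were another tool, the 2 groups alone, other scalings and filters, a replicate block and leaving out each library. An offset for exon length, DESeq2 without high-dose replicate 2 and the MANE Select transcript length were added after seeing the data.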

Additional observations from a re-analysis of the deposited data

Results flagged for a closer look

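The change against vehicle differed between the high and the low dose for 3 members by a direct test of the difference. The log2 difference between the doses was 0.94 for AREG (adjusted p = 0.00390 from edgeR), 0.79 for EREG (adjusted p = 0.000569) and 0.54 for ERRFI1 (adjusted p = 0.000356), with all 3 high-dose libraries above all 3 low-dose libraries for each. With edgeR on these 2 groups alone, the adjusted p was 0.0762 for AREG and 0.0518 for EREG, and ERRFI1 remained called under all 23 alternatives. No formal test for outlying libraries was run in these groups of 3, but all 3 genes stayed called with any 1 library left out. Without high-dose replicate 2 the difference was 0.73 for AREG, 0.84 for EREG and 0.53 for ERRFI1.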

How the results depend on the processing

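Over 23 alternatives, EREG and ERRFI1 were called at the high dose in all 23 (largest adjusted p 0.00585 and 0.0167) and AREG in 22, while TGFA was called in 17, HBEGF in 15 and BTC in 11. Of the 9 members, 6 were called at the high dose, 2 with edgeR on the 2 groups alone and 3 with total counts in place of TMM, which moved the median of all genes to −0.13. Leaving out single libraries gave 3 to 7 called members at the high dose, 1 to 3 at the medium dose, 0 to 1 at the low dose and 3 to 5 for the high against the low dose. At the medium dose the count was 1 with no filter on low counts, 1 with the replicate block and 5 with DESeq2 without high-dose replicate 2, which gave 1 at the low dose and 5 for the high against the low dose. The latter count was 1 with edgeR on the 2 groups. The dose trend was called for 3 members with total counts. For the pathway lists, 12 genes were called at the high dose, 1 with edgeR on the 2 groups, 7 to 29 with single libraries left out (29 without high-dose replicate 2, 7 without vehicle replicate 2) and 31 with DESeq2 without high-dose replicate 2. Over all genes the calls also shifted, from 887 to 181 with edgeR on the 2 groups, 433 without vehicle replicate 2 and 2934 without high-dose replicate 2. DESeq2 without that high-dose library called 2562. The causes of these shifts were not tested.

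Directions turned for uncalled values. With single libraries left out, the high-dose log2 fold change ranged from −0.14 to 0.10 for ERBB2 and from −0.23 to 0.01 for ERBB3, and both were positive without high-dose replicate 2 (0.11 and 0.01 with DESeq2). The trend of ERBB2 ranged from −0.03 to 0.03 and was 0.03 with DESeq2 without that library. AREG at the low dose ranged from −0.12 to 0.08 and EGFR in the high against the low dose from −0.09 to 0.34. With the length offset, AREG at the low dose was 0.09 and ERBB3 at the medium dose −0.04, and with total counts EGFR in the high against the low dose was −0.07. Deviations from the group means had correlations from −0.50 to 0.37 between libraries with the same replicate number, and the numbers were not taken as pairs. Deviations within a group of 3 libraries depend on each other, so these correlations cannot exclude a batch shared by replicate number. The block ended the call of ERRFI1 at the medium dose (adjusted p = 0.0880). BTC had 70 to 242 and HBEGF 134 to 341 expected counts per library, the lowest of the 9 members.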
